A study of Mus musculus with 6 samples.

Results

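Expression of 10 genes encoding Jumonji C (JmjC) histone demethylases was followed in primary mouse hepatocytes kept under normoxia or hypoxia. The members are *Kdm2a*, *Kdm2b*, *Kdm3a*, *Kdm3b*, *Kdm4a*, *Kdm4b*, *Kdm4c*, *Kdm5a*, *Kdm5b* and *Kdm6b*. They were taken by gene symbol and not by a filter on their values, although earlier results of these data were known. Each has exactly 1 row among the 13725 genes named in the deposited table. Hepatocytes came from 3 untreated wildtype C57BL/6 mice aged 8 to 12 weeks by the labels (male C57BL/6N animals, with a narrower age range, in the methods), and cells of each mouse were placed in both conditions. The normoxic cultures (n = 3) are labelled 19.5% O2 and the hypoxic cultures (n = 3) 1% O2, both for 72 h. The legend of the array data speaks of 48 h and 19% O2 in normoxia instead, the methods give a slightly lower normoxic oxygen level for the attachment phase, and which applies could not be told from the arrays. All cultures were on collagen-coated plates, with an attachment phase in serum and dexamethasone and a medium free of both during the exposure. By the methods, the conditions were on separate plates in separate incubators, so that plate and incubator cannot be told apart from oxygen. Both arrays of a mouse hold cells of the same animal. Isolated cells in culture lack the blood flow and the oxygen gradient of the liver lobule.

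JmjC demethylases remove methyl groups from lysines of histone tails. They are dioxygenases that need Fe(II), 2-oxoglutarate and molecular oxygen, and they release succinate and formaldehyde, so that oxygen is a substrate of the reaction itself. The subfamilies differ in the lysine they act on, with KDM2 enzymes on H3K36, KDM3 on H3K9, KDM4 on H3K9 and H3K36, KDM5 on H3K4 and KDM6 on H3K27. Several of these genes, *KDM3A* and *KDM4B* among them, are known from human cells as direct targets of the hypoxia-inducible factors (HIFs).

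Expression is given as log2 values made by robust multi-array average (RMA), and a difference of 1 is a change by a factor of 2. Hypoxia was compared with normoxia by limma over all 15443 rows, and a gene is called higher or lower at an adjusted p under 0.05 (Benjamini-Hochberg). Over all rows 2400 were higher and 3698 lower, and the median log2 fold change was -0.05. Array medians lay between 7.42 and 7.49. Correlation across rows was 0.958 to 0.963 among normoxic arrays and 0.903 to 0.938 among hypoxic arrays. Of 10 well-known HIF targets used as a check of the condition, 9 were higher and none was lower (none lower at an unadjusted p under 0.05 either), with *Ndrg1* up by 1.91 on the log2 scale (standard error, SE, 0.18). Of the 8 measured hepatocyte markers, 3 were lower, *Hnf4a* (log2 fold change -1.03), *Fgb* (-0.94) and *Apob* (-0.39). Another 2 were higher, *Apoa1* (0.72) and *Tat* (0.88). The hepatocyte genes *Alb* (13.34 ± 0.08 in normoxia and 13.47 ± 0.03 in hypoxia, SD, n = 3) and *Ttr* (12.65 ± 0.06 and 12.85 ± 0.08) were not called, and neither was *Serpina1b*. Arrays have no read depth, and the number of arrays limits the precision. In such bulk samples fewer cells of a type and less RNA per cell cannot be told apart.

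Hypoxia lowered 6 of the 10 demethylase genes and raised 1, and the other 3 passed the threshold in neither direction. The lower genes were *Kdm2a*, *Kdm2b*, *Kdm3b*, *Kdm4a*, *Kdm5a* and *Kdm5b*, and *Kdm3a* alone among the members was higher. The background was 23.9% of all rows lower and 15.5% higher, or 39.5% called in either direction, against 60% and 10% of the members. For the 7 called members the normoxic and hypoxic arrays did not overlap, which held for 31.9% of all rows in the lower direction and 22.4% in the higher, 54.3% in all. Without mouse 2, 3 members were lower and none higher, and without mouse 3, 3 were lower and 1 higher, while the background fell to 8.46% and 11.2% of rows lower. The median log2 fold change of the members was -0.53.

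**Figure D1:**
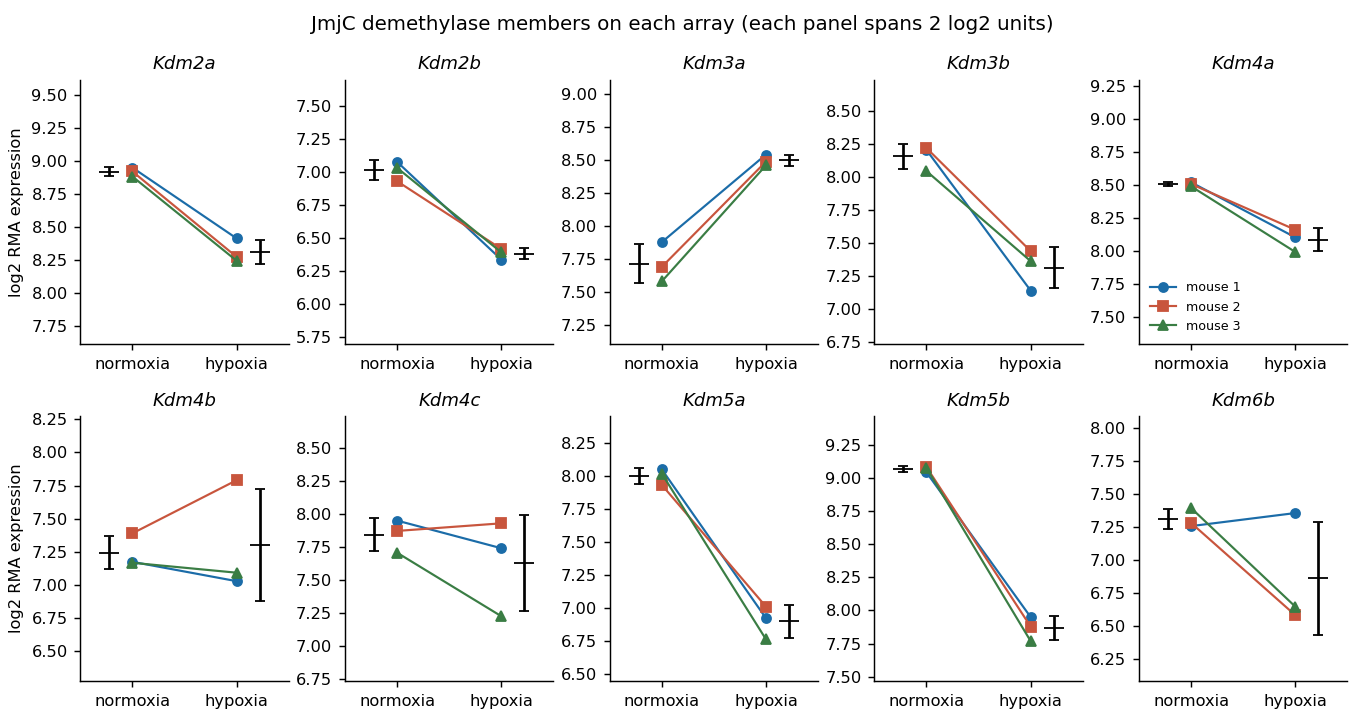
Expression (log2 RMA value, vertical axis) of each demethylase gene on the normoxic and the hypoxic array of mouse 1 (circles), mouse 2 (squares) and mouse 3 (triangles), joined by a line per mouse, with the mean ± SD of each condition in black (n = 3). All lines rise for *Kdm3a* and fall for 6 genes, whereas *Kdm4b*, *Kdm4c* and *Kdm6b* each have 1 mouse that moved against the other two.

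The KDM3 genes among the members moved in opposite directions. A further gene of this subfamily outside the members, *Jmjd1c*, was not called (-0.04 log2 units, limma adjusted p = 0.905). *Kdm3a* (also known as *Jmjd1a*) encodes a demethylase of mono- and dimethylated H3K9 with known roles in spermatogenesis and energy metabolism. Its log2 expression was 7.88, 7.69 and 7.58 under normoxia and 8.54, 8.49 and 8.46 under hypoxia in mouse 1, 2 and 3. Every hypoxic array was above every normoxic one, and the hypoxic arrays lay closer together (SD 0.04) than the normoxic ones (SD 0.15). *Kdm3a* thus rose by 0.78 log2 units (SE 0.13, limma adjusted p = 0.00463), or 1.72-fold, and 89.4% of all rows had a lower fold change. Without mouse 2 the adjusted p was 0.0647 at nearly the same fold change (0.77).

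*Kdm3b* encodes a paralog of KDM3A that acts on the same mark. Its expression was 8.20, 8.22 and 8.04 under normoxia and 7.14, 7.44 and 7.36 under hypoxia. All 3 mice fell, mouse 1 by most, and the conditions were set apart by more than the spread within either. Its change was -0.84 log2 units (SE 0.14, limma adjusted p = 0.00417), so that hypoxic expression was 55.8% of normoxic expression. The call was kept under all 20 alternatives (highest adjusted p = 0.0488).

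Because *Kdm3a* was the member that rose, its promoter sequence was searched for the core of the HIF binding site, ACGTG or GCGTG on either strand, beside those of the other members. RefSeq windows of 300 bases (250 before to 50 after a start site, build GRCm38.p6) were at hand for 5 members, *Kdm2b*, *Kdm3a*, *Kdm4a*, *Kdm4c* and *Kdm5b*, several of them with more than 1 start. A match was found in at least 1 window of 4 of these 5 genes, against 46.7% of the 27025 genes with a window. By window, 7 of their 11 had a match, against 43.8% of all 32851 windows. These members had more windows per gene than all genes, so that the shares by gene are not like for like. Some windows of *Kdm2b* overlap and hold the same matches, so that windows are not separate units. CG dinucleotides ranged from 0 to 49 in the members' windows and were not taken into account. The sequences around some of these matches are shown so that the gene that rose can be read beside genes that fell or were not called. Each is written 5′ to 3′ on the strand of its gene, with the match it is shown for in capitals.
Kdm3a, chr6:71632928-71632956, minus strand, 27 bases before a start: ccgggaggctgtGCGTGtcttgtgagaga
Kdm4c, chr4:74251782-74251811, plus strand, 85 bases before a start: agtttagagaccCACGTGacccagagagcg
Kdm4c, chr4:74251814-74251843, plus strand, 53 bases before the same start: cggcccagcggtCACGTGggggcgcgtgcg
Kdm5b, chr1:134559937-134559965, plus strand, 229 bases before a start: ccaaaatatatgACGTGattgatggattg
Kdm5b, chr1:134560147-134560175, plus strand, 19 bases before the same start: cggaggagcactGCGTGgggtagcggcaa
Kdm2b, chr5:122988617-122988645, minus strand, 126 bases before a start: caacgccgaaagGCGTGgaagggactgag

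The single match of *Kdm3a* has the GCGTG form, as do matches in *Kdm5b* and *Kdm2b*, which fell. *Kdm4c*, which was not called, had the most matches of any window of a member (6 when both strands are counted), among them a pair of CACGTG palindromes, each of which counts on both strands and is also the E-box bound by other factors. A further GCGTG, in lower case, follows the second palindrome. The 1 window of *Kdm4a*, which fell, had no match. These letters were thus found beside members of each kind of response, and a match describes the window only.

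Both KDM5 genes among the members fell, and by more than any other member. The KDM5 genes outside the members, *Kdm5c* (not called) and *Kdm5d*, are given further below. KDM5 enzymes remove methyl groups from H3K4, a mark of active promoters, and were first described as retinoblastoma-binding (KDM5A) and breast cancer-associated (KDM5B) proteins. *Kdm5b* expression was 9.04, 9.08 and 9.08 under normoxia and 7.95, 7.88 and 7.77 under hypoxia in mouse 1, 2 and 3. The normoxic arrays were nearly equal (SD 0.02), and all hypoxic arrays (SD 0.09) lay more than a log2 unit below them. This change of -1.20 log2 units (SE 0.12, limma adjusted p = 0.000889) left 43.4% of normoxic expression, and only 5.11% of all rows had a lower fold change.

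*Kdm5a* expression was 8.05, 7.93 and 8.02 under normoxia and 6.92, 7.01 and 6.76 under hypoxia. Again no array of one condition reached the other. Expression changed by -1.10 log2 units (SE 0.13, limma adjusted p = 0.00141), leaving 46.6% of normoxic expression. *Kdm5a* and *Kdm5b* were called under all alternatives, including those without a mouse (highest adjusted p = 0.0261 for each).

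Both KDM2 genes fell by a similar amount. KDM2 proteins carry a zinc finger that binds unmethylated CpG islands, and KDM2B brings a variant Polycomb complex there. *Kdm2a* expression was 8.95, 8.92 and 8.88 under normoxia and 8.41, 8.27 and 8.24 under hypoxia. *Kdm2b* expression was 7.08, 6.93 and 7.03 under normoxia and 6.34, 6.42 and 6.39 under hypoxia. For each gene the arrays of the conditions stood apart in all 3 mice. The change was -0.61 log2 units for *Kdm2a* (SE 0.12, limma adjusted p = 0.00875) and -0.63 for *Kdm2b* (SE 0.12, adjusted p = 0.00727), or 65.7% and 64.6% of normoxic expression. Both calls were lost without mouse 2 (adjusted p = 0.0975 and 0.0652) and without mouse 3 (0.0654 and 0.0602), with fold changes from -0.59 to -0.69. *Kdm2b* was also not called in a fit blocked by mouse with trend and robust eBayes (adjusted p = 0.0578).

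Of the KDM4 genes only *Kdm4a* was called. KDM4 enzymes act on trimethylated H3K9 and H3K36. *Kdm4a* expression was 8.52, 8.51 and 8.49 under normoxia and 8.10, 8.16 and 7.99 under hypoxia, lower in all 3 mice without overlap. It changed by -0.42 log2 units (SE 0.12, limma adjusted p = 0.0314), the smallest of the 6 falls, to 74.8% of normoxic expression. Blocking by mouse ended this call (adjusted p = 0.0718), as did leaving out any one normoxic array, the hypoxic array of mouse 2 or 3, or any one mouse (adjusted p of up to 0.151), with changes between -0.37 and -0.46 in these fits.

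*Kdm4b* expression was 7.17, 7.39 and 7.17 under normoxia and 7.03, 7.79 and 7.09 under hypoxia. Mouse 2 stood above the other mice in both conditions and the only one with a higher value under hypoxia, and the hypoxic arrays spread widely (SD 0.42). The mean change was 0.06 log2 units (95% confidence interval -0.46 to 0.58, limma adjusted p = 0.85), and it turned to -0.18 without the hypoxic array of mouse 2 and to -0.11 without mouse 2.

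*Kdm4c* expression was 7.95, 7.87 and 7.71 under normoxia and 7.74, 7.93 and 7.23 under hypoxia. The hypoxic array of mouse 2 again lay highest and that of mouse 3 lowest. Its mean difference was -0.21 log2 units (95% confidence interval -0.69 to 0.26, limma adjusted p = 0.438), and it was not called under any alternative.

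*Kdm6b* (also known as *Jmjd3*) encodes an H3K27 demethylase that is induced in activated macrophages. Its expression was 7.26, 7.28 and 7.39 under normoxia and 7.36, 6.58 and 6.65 under hypoxia. The hypoxic arrays of mouse 2 and 3 lay below all normoxic arrays, whereas that of mouse 1 lay among them. The difference of the means was -0.45 log2 units (95% confidence interval -0.97 to 0.07, limma adjusted p = 0.144). It became -0.70 and was called without the hypoxic array of mouse 1 (adjusted p = 0.0076), and -0.72 without mouse 1 (adjusted p = 0.0235). Whether *Kdm6b* is called thus depends on 1 hypoxic array. That array correlated at 0.912 and 0.903 with the other hypoxic arrays, which correlated at 0.938 with each other. Without it 26.7% of all rows were lower and 20.2% higher, against 23.9% and 15.5% with it.

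Paralogs within a subfamily were then set against each other on the same array, which asks whether they responded alike. For each of 6 pairs of members the log2 fold change of one gene was subtracted from that of the other. JmjC genes outside the members were not paired. *Kdm3a* exceeded *Kdm3b* by 1.62 on the log2 scale, with 1.73, 1.58 and 1.56 in mouse 1, 2 and 3. *Kdm4a* lay below *Kdm4b* by -0.48, with -0.27, -0.75 and -0.42. These are the pairs whose within-array differences did not overlap between conditions (two-sided exact permutation p = 0.1 for each, 0.3 after adjustment over the 6 pairs). With 3 arrays against 3, 0.1 is the smallest p that this test can give.

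The remaining pairs did not separate. *Kdm5a* minus *Kdm5b* was 0.10, with -0.03, 0.29 and 0.06 in the mice, and *Kdm2a* minus *Kdm2b* was 0.02, with 0.20, -0.13 and 0.00. Within KDM4, *Kdm4a* minus *Kdm4c* was -0.21 and *Kdm4b* minus *Kdm4c* was 0.27. The exact permutation p of these pairs was between 0.3 and 0.8, which does not show that the genes respond alike.

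**Figure D2:**
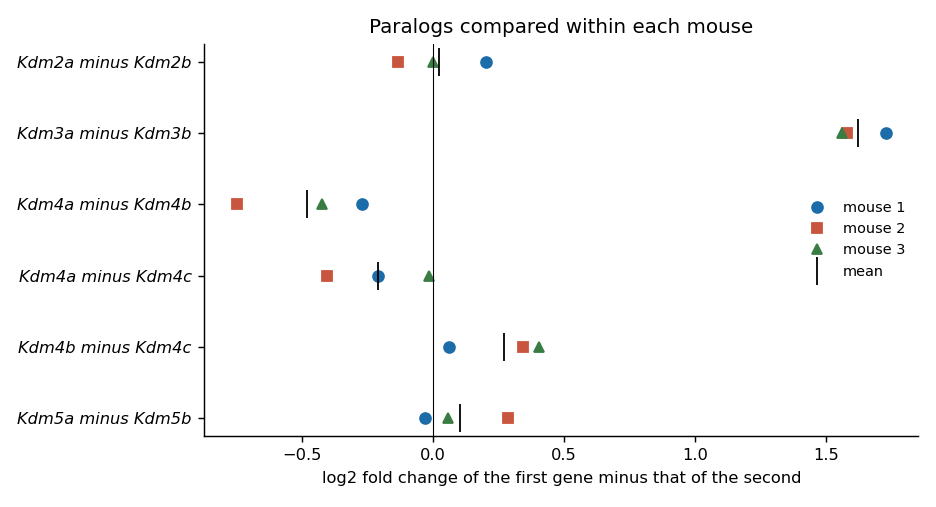
Difference of the log2 fold changes of 2 paralogs (horizontal axis) for 6 pairs within the KDM2, KDM3, KDM4 and KDM5 subfamilies, with 1 point per mouse and the mean as a bar. The points of *Kdm3a* minus *Kdm3b* lie between 1.56 and 1.73, far from those of the other pairs.

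The wider JmjC family was examined to see whether the members' pattern was shared. Of 18 other measured JmjC genes (2 more have no row of their own), 10 were lower and none was higher (limma, adjusted p under 0.05, and none higher at an unadjusted p under 0.05), 55.6% lower against the background of 23.9%. Their median log2 fold change was -0.53, equal to that of the members to that rounding. Over the 28 JmjC genes together 16 were lower, and *Kdm3a* was the only one called higher. *Jmjd6*, not called, also rose in all 3 mice (0.36 log2 units, limma adjusted p = 0.109). Its arrays did not overlap between conditions, which held for 22.4% of all rows in the higher direction. Without mouse 2 the 18 genes gave 3 lower calls and without mouse 3 they gave 6.

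Among the relatives of KDM6B and KDM5, the X-linked H3K27 demethylase gene *Kdm6a* and its Y-linked copy *Uty* had the largest falls of the family. *Kdm6a* had a mean of 8.75 ± 0.17 (SD, n = 3) in normoxia and 7.30 ± 0.42 (SD, n = 3) in hypoxia, a change of -1.45 log2 units (SE 0.23, limma adjusted p = 0.00327). *Uty* had means of 8.11 ± 0.17 and 6.24 ± 0.53, a change of -1.87 (SE 0.27, adjusted p = 0.00244). For both genes the arrays of the conditions did not overlap, and both calls held without any one mouse. The Y-linked *Kdm5d* fell by 1.07 on the log2 scale (SE 0.20, limma adjusted p = 0.00626, but 0.0622 without mouse 2 and 0.0665 without mouse 3), whereas its X-linked counterpart *Kdm5c* had a log2 fold change of -0.30 (95% confidence interval -0.65 to 0.05) and was not called. Such X and Y copies are similar in sequence, and whether single probes read both was not tested.

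*Jarid2*, which encodes a JmjC protein without demethylase activity that assists Polycomb repressive complex PRC2, fell by 1.15 on the log2 scale (SE 0.15, limma adjusted p = 0.00172) and was called under all alternatives. *Phf8* and *Phf2*, which encode H3K9 demethylases with a PHD finger, fell by 0.96 (SE 0.19) and 0.50 (SE 0.12), but both calls were lost without mouse 2 and without mouse 3. *Hif1an*, the gene for the asparaginyl hydroxylase that restrains HIF, changed by -0.87 log2 units (SE 0.17, limma adjusted p = 0.00712, and 0.078 without mouse 2). *Hspbap1* (-0.69), *Jmjd4* (-0.79) and *Tyw5* (-0.45), JmjC proteins that do not act on histones as their known role, were also lower in limma. *Hspbap1* lost its call without mouse 2, *Jmjd4* in several fits without an array or a mouse, and *Tyw5* also when blocked by mouse (adjusted p = 0.064).

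**Figure D3:**
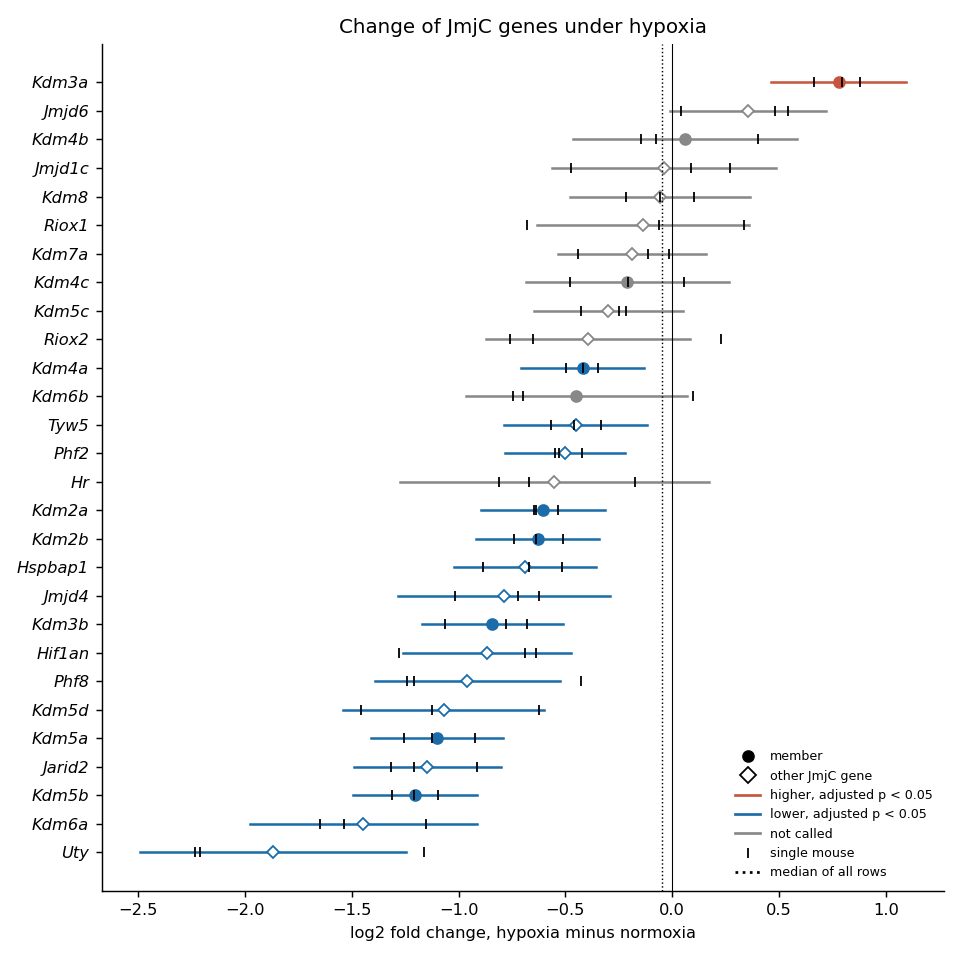
Log2 fold change, hypoxia minus normoxia (horizontal axis), of the 10 members (filled circles) and 18 other JmjC genes (open diamonds), with the 95% confidence interval from limma as a line and single mice as ticks, in blue for lower, red for higher and grey for not called. *Kdm3a* stands alone at the right with 0.78, and *Uty* lies at the left end with -1.87.

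Other enzymes of the same chromatin marks and of the same cofactors were counted next. Of the FAD-dependent demethylase genes, which need no 2-oxoglutarate, *Kdm1a* (LSD1) was lower by a change of -0.66 log2 units (SE 0.15, limma adjusted p = 0.0132, and between 0.0506 and 0.104 where a mouse or the normoxic array of mouse 3 was left out), and *Kdm1b* was not called (-0.34). Other 2-oxoglutarate dioxygenases, many of which act on DNA or RNA, were counted in the TET and ALKBH families. Of their 11 genes 2 were higher (18.2%, against 15.5% of all rows) and 1 was lower (9.09%, against 23.9%). The median change was 0.00. The genes were *Alkbh2*, a DNA repair enzyme (0.72), *Alkbh5*, an RNA demethylase (0.66), and *Fto*, another RNA demethylase (-0.82), all of which lost their calls without mouse 2.

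Genes listed with the opposing methyltransferases were lower in part. Of 15 H3K4 methyltransferase genes and their core subunits 6 were lower and none higher (2 higher at an unadjusted p under 0.05, and 1 or 2 higher in several alternatives). *Kmt2e*, listed by family name whether or not its product is an active methyltransferase, changed by -1.33 log2 units (SE 0.13, limma adjusted p = 0.000735). The change of *Kmt2a* (MLL1) was -0.96 (SE 0.17). Of 6 H3K9 methyltransferase genes 4 were lower and 1 higher, led by *Suv39h1* with -1.15 (SE 0.18), while *Setdb2* had 0.49 (SE 0.13). The call of *Setdb2* was lost when blocked by mouse. *Suv39h1* was a dim row, as 14.25% of all rows had a lower mean. Lower genes made up 40% of the H3K4 list and 66.7% of the H3K9 list, against 23.9% of all rows. Without mouse 2 each list had 1 lower call, with 8.46% of all rows lower.

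In the PRC2 complex, which methylates H3K27, 3 of 10 genes were lower and 1 higher (30% and 10%, against 23.9% and 15.5% of all rows). *Mtf2* changed by -1.12 log2 units (SE 0.13), the catalytic subunit gene *Ezh2* by -1.04 (SE 0.23) and *Phf19* by 1.27 (SE 0.33). The other catalytic subunit gene, *Ezh1* (-0.43, SE 0.14), passed narrowly (limma adjusted p = 0.049995) and not when blocked by mouse (0.101). Of 6 H3K36 methyltransferase genes *Setd2* alone was called (-0.82, SE 0.15, or 16.7% lower), and none was higher at an unadjusted p under 0.05. Of 10 genes of the Polycomb complex that KDM2B joins, *Bcorl1* (-1.20) and *Bcor* (-0.82) were lower (20%) and none was higher, again also at an unadjusted p under 0.05. These shares were near or below that of all rows. All of these calls except that of *Mtf2* were lost without mouse 2.

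Enzymes that make or remove 2-oxoglutarate, succinate and fumarate showed 4 of 21 genes lower and 2 higher, below the background in both directions (19% and 9.52%). The lower genes were the isocitrate dehydrogenase genes *Idh3a* (-1.12, SE 0.14), *Idh2* (-0.80, SE 0.14) and *Idh1* (-0.74, SE 0.18), whose products yield 2-oxoglutarate, and the glutamate dehydrogenase gene *Glud1* (-0.68, SE 0.14). The higher genes were *Got1* (0.59, SE 0.15) and *Suclg2* (0.48, SE 0.14). *Idh3b* (0.35) and *Idh3g* (-0.42), for other subunits of the enzyme of *Idh3a*, were not called. The genes for the succinate dehydrogenase subunits and for fumarase (*Sdha*, *Sdhb*, *Sdhc*, *Sdhd* and *Fh1*) were not called, with log2 fold changes between -0.19 and 0.29. Of the lower genes *Idh3a* was the one called without any mouse.

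**Figure D4:**
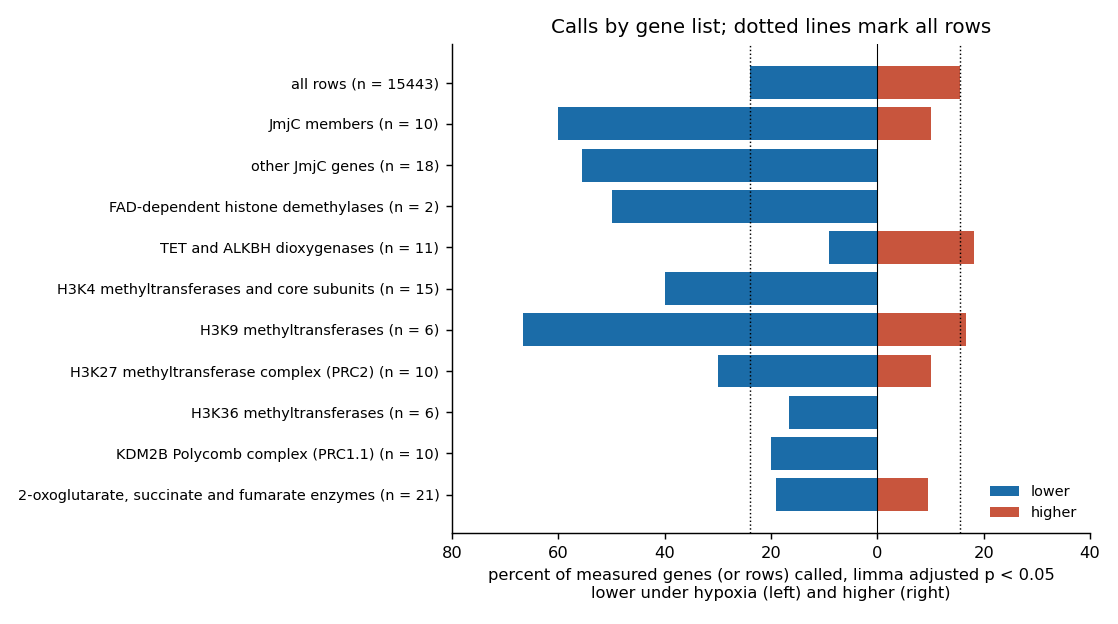
Percent of measured genes lower (blue, to the left) and higher (red, to the right) under hypoxia at a limma adjusted p under 0.05, for all rows, the 10 members and 9 further lists, with the number measured in parentheses and dotted lines at the share of all rows. The members (60%) and the other JmjC genes (55.6%) exceed the 23.9% of all rows on the lower side, and the TET and ALKBH genes (9.09%) do not.

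Levels of some markers of other liver cells differed between the conditions as well. Of 10 macrophage and Kupffer cell markers 2 were higher and 3 lower, with *Cd68* up by 1.35 on the log2 scale and *C1qb* down by 1.64. *C1qb* was among the dimmest rows, as only 0.395% of all rows had a lower mean. The 10 markers were also summed. Their sum after conversion to the linear scale was 2070 to 2220 under normoxia and 2920 to 2980 under hypoxia, but this rise came from *Cd68*, without which the other 9 gave 1250 to 1600 and 1100 to 1280. The 5 cholangiocyte markers (1 higher, 2 lower) summed to 2760 to 4160 under normoxia and 1220 to 1630 under hypoxia, a fall carried by *Spp1* (-2.81 on the log2 scale), without which the ranges overlapped (1090 to 1330 and 931 to 1320). Of 9 sinusoidal endothelial markers 6 were higher and 2 lower, and their sum was 1580 to 1780 and 2210 to 2360, or 1310 to 1490 and 1750 to 1820 without *Cdh5*, the brightest of them. Sums of the 8 hepatocyte markers (2 higher, 3 lower) were 37900 to 39000 and 37700 to 39200, and those of the 9 stellate cell markers (1 higher, 1 lower) were 1120 to 1360 and 1240 to 1560, both overlapping between the conditions. No marker was at zero on these arrays, which hold no measure of background. The part of these cells in the change of any demethylase gene was not tested.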

How the data were processed

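Hepatocyte RNA was measured on 6 Mouse Gene 2.0 ST arrays (Affymetrix). The deposited values, on the log2 scale, were computed by the authors by RMA in oligo (background correction, quantile normalization, probe summary; no version given), and these were used unchanged. The table holds part of the array. Symbols came from the platform annotation and were updated through RefSeq names (GRCm38.p6). Where a gene has several rows, that with the highest mean was taken. Differences were tested in R 4.3.3 by limma 3.58.1 (lmFit, eBayes) on condition alone. Arrays of the same mouse are paired by the labels, and their deviations from the group means correlated at -0.11, 0.02 and 0.10, and blocking by mouse was run as an alternative. P-values measure the spread between these cultures of 3 mice. Members and lists were chosen with earlier results of these data known. Named are all members, all called JmjC genes and up to 4 called genes per list by adjusted p; uncalled genes and markers named in addition were chosen after their values were seen. On simulated data for this comparison over 15443 rows, 49 of 100 rows changed by 1 and 87 of 100 changed by 2 on the log2 scale were called, with 8 false calls. Only these rows were changed there, whereas 39.5% of rows were called in the real data. The adjusted threshold was therefore stricter in the simulation, and its shares do not carry over to the real comparison. The 20 alternatives covered the block, eBayes options, filters, normalization, thresholds and leaving out arrays or mice. Pair differences were tested with exact permutation tests in scipy 1.17.1.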

Additional observations from a re-analysis of the deposited data

How the results depend on the processing

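Over 20 alternatives, 179 of 199 values of the members kept their direction and their side of the threshold, 16 kept the direction but were no longer called, 2 were newly called (*Kdm6b*) and 2 changed sign (*Kdm4b*, to -0.184 without the hypoxic array of mouse 2 and to -0.111 without that mouse, and up to 0.198 without the hypoxic array of mouse 1). Blocked by mouse, 5 members were lower and 1 higher, with 3099 and 2047 rows in all, and of the calls named for members this block changed only that of *Kdm4a*. When an array or a mouse was left out, 0 to 1 members were higher and 3 to 7 lower, with 852 to 3114 rows higher and 1306 to 4131 lower in all. The low ends came without mouse 2 (for the members lower also without mouse 3), where 4 arrays were tested. At an adjusted p under 0.01, 1126 rows were higher and 1944 lower, and of the members only *Kdm4a* was lost. *Kdm2b* dropped out with the dimmest 25 percent of rows. A further quantile normalization or centring on the brighter rows changed no call of a member. The table holds no background values, so that signal over background could not be judged. In an alternative chosen after seeing the data, leaving *Cd68* out of the summed macrophage and Kupffer cell markers turned their mean log2 ratio from 0.44 to -0.28.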
